A study of Mus musculus with 4 samples.

Results

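The data described here cover glycolysis, glucose uptake, lactate export and the control of pyruvate dehydrogenase in mouse embryonic fibroblasts (MEFs) on their way to induced pluripotent stem cells. The genes were chosen by name from a list of 36 symbols of these steps, a rule that uses no measured value, although the list was drawn up with earlier results of these data known. Every probe carrying one of the names was taken, which gave 58 of 55681 probes on the array and 35 of 34816 genes. Pkm2 is an older name of Pkm and had no probe of its own.

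Expression was measured at 8 days postinfection (dpi) on 4 single-colour microarrays, 1 per group. All 4 groups were MEFs from male E13.5 embryos that carried EGFP under control of the Oct4 promoter and enhancer, and all received retroviruses for Oct4, Sox2 and Klf4. OSK cells received nothing further, while OSKA cells also received AKT-MER, a myristoylated AKT joined to a modified estrogen receptor that is switched on by 4-hydroxytamoxifen (4OHT). From 3 dpi, each kind of cell was given 4OHT or the ethanol vehicle, written here as "without 4OHT". The MEFs were mixed from several embryos and sampled in bulk. One free-text label of the OSKA array with 4OHT describes AKT as not activated. The title says the opposite, and the title was followed.

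In glycolysis, glucose enters through GLUT carriers, is trapped by hexokinase, committed by phosphofructokinase, cleaved by aldolase and oxidised to pyruvate. Lactate dehydrogenase turns pyruvate into lactate, which leaves through proton-linked monocarboxylate transporters, and pyruvate dehydrogenase instead sends it to the citric acid cycle. AKT is a kinase of the insulin signalling pathway, known for promoting glucose uptake and glycolysis, and pluripotent stem cells are known for a high rate of glycolysis.

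A level here is the log2 intensity of a probe minus the 75th percentile of its array, and a gene is given by its brightest probe. Values of 1 gene on the 4 arrays are always listed in the order OSK without 4OHT, OSK with 4OHT, OSKA without 4OHT and OSKA with 4OHT. Levels of different probes cannot be set against each other, so comparisons run along the arrays. With 1 array per group no difference has a replicate check, no test was run, and position on the slide and group cannot be told apart. The scanner software's own error of a difference had a median of 0.204 over the members and covers the measurement alone. Between 52.4% and 55.4% of spots were well above background, and all 35 genes were so on every array, as were 56 of the 58 probes. As a check of the labels for the transgene, though not for its activation, 1 of the 4 probes of Esr1, the estrogen receptor gene, was well above background on the OSKA arrays alone (3.11 without and 3.32 with 4OHT). Another Esr1 probe was dim, from -5.26 to -3.47, and above background on 3 arrays, OSK without 4OHT among them, and the other two were so on none. The Akt1 probe differed between OSKA and OSK cells by -0.10 without and 0.07 with 4OHT. The 10 fibroblast markers looked up were above background on all 4 arrays. Of the 5 pluripotency markers, Nanog, Dppa5a and Dppa3 were above it on all 4 arrays and Zfp42 and Esrrb on none.

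Most genes of the pathway lay higher in OSKA cells with 4OHT than without it. This held for 27 of the 35 genes, against 45.2% of all 20300 genes measured, and the median difference was 0.25 (1.19-fold), against -0.03 for all genes. With dim probes kept, 56.1% of all genes were higher, their median was 0.06, and 24 members lay above it. The difference reached 2-fold for Slc16a3, the lactate exporter MCT4, and for Pgam2, the muscle form of phosphoglycerate mutase (2.01% of all genes did so). Slc2a4 and Pfkfb3 were also at least 1.5-fold higher (5.06% of all genes), and Pdp1, a phosphatase that activates pyruvate dehydrogenase, was at least 1.5-fold lower (4.63% of all genes). No member was 2-fold lower (0.901% of all genes). In bulk cells, a change in the share of a cell type and a change in RNA per cell cannot be told apart.

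By the make-up of the list, 28 of the 35 members belong to the route from glucose to lactate. Of these 28, from glucose uptake to lactate export, 24 were higher with 4OHT in OSKA cells (45.2% of all genes), with a median of 0.26. Of the 7 genes of pyruvate dehydrogenase and its control, 3 were higher, near the share of all genes, and 4 lower, with a median of -0.22. The difference between these 2 blocks was not tested. Among further genes of pyruvate entry and the complex, 5 of the 7 measured were higher, with a median of 0.11. Members were mostly bright, 28 of them lying above the 75th percentile on all arrays. Of these, 22 were higher with 4OHT in OSKA cells, against 45.4% of the 10372 genes above the same cut. The cut does not match brightness, since Ldha, for example, lay at 7.78 to 8.12, far above it.

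**Figure D1:**
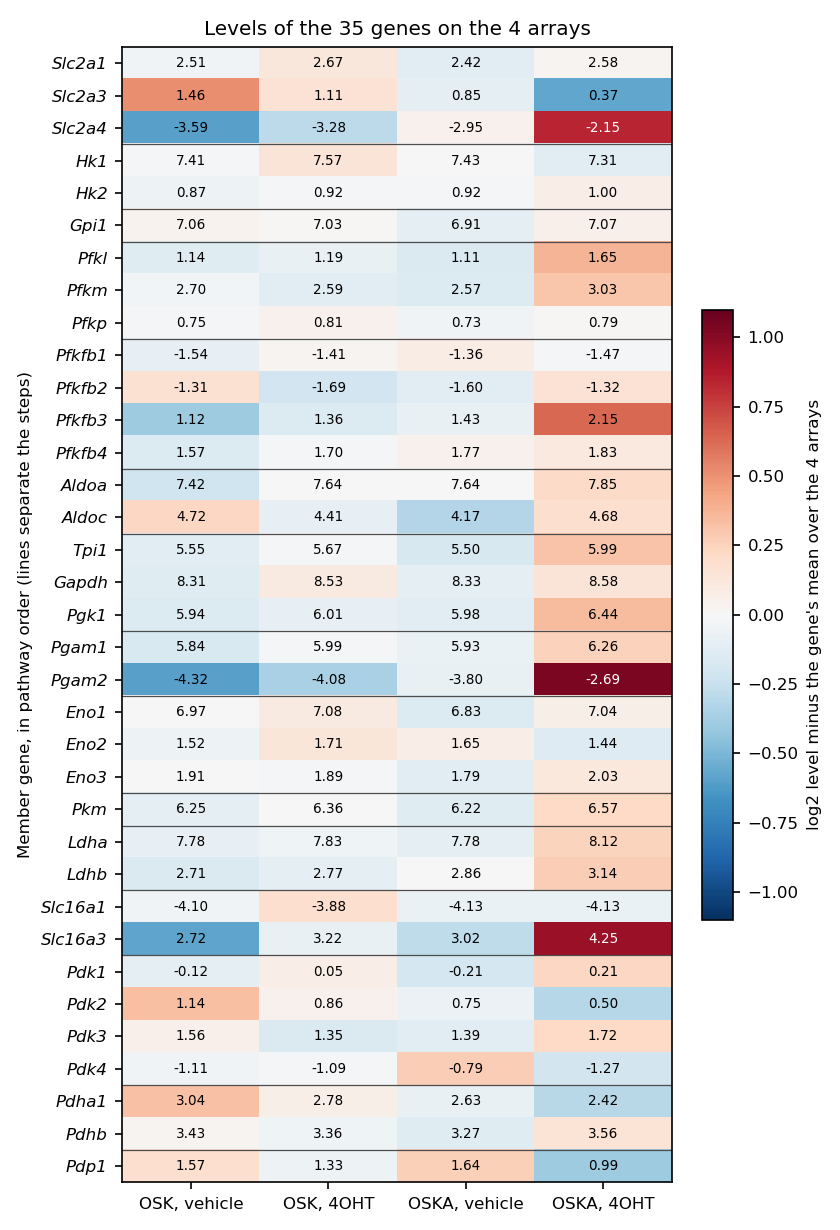
Levels of the 35 genes on the 4 arrays, in pathway order from uptake to pyruvate dehydrogenase. Each cell gives the log2 level relative to the array's 75th percentile, and the colour gives that level minus the gene's mean over the 4 arrays (red higher, blue lower). The right-hand column is red for most genes, and 21 of 35 are highest there.

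The array of AKT-activated cells was the highest of the 4 for 21 of the 35 genes, against 27.3% of the 19540 genes measured on all arrays, as the colour map of levels shows. It was the lowest for 7 genes (37.5% of all genes). It lay above the other 3 arrays by more than their own range for 13 genes (10.8% of all genes), among them Pfkl, Pfkm, Pfkfb3, Tpi1, Pgk1, Pkm, Ldha and Slc16a3, and below them by more than that range for 1, Pdp1 (15.5% of all genes). The 3 arrays without activated AKT differ in transgene and ligand and are not replicates.

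At the entry of glucose, the 3 carriers differed in direction. Slc2a1, the widespread carrier GLUT1, lay at 2.51, 2.67, 2.42 and 2.58, and the 4 arrays spanned 0.25. Slc2a3, the high-affinity carrier GLUT3, lay at 1.46, 1.11, 0.85 and 0.37. It was thus highest in OSK cells without 4OHT and lowest in AKT-activated cells. The difference with 4OHT was -0.47 (1.39-fold lower) in OSKA cells and -0.35 in OSK cells, and that between OSKA and OSK cells with 4OHT was -0.74 (1.67-fold lower).

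Slc2a4 encodes GLUT4, the insulin-responsive carrier of muscle and fat. It lay at -3.59, -3.28, -2.95 and -2.15, which places its probe among the dim ones. The difference with 4OHT was 0.79 (1.73-fold) in OSKA cells and 0.32 in OSK cells, and without the ligand OSKA cells lay 0.65 above OSK cells. Its probe was spotted 10 times, with SDs of 0.09 to 0.20 among the spots of an array, which is technical scatter. Under normexp background correction with an offset of 50 followed by quantile normalization, the OSKA difference was 0.47, and under quantile normalization alone it was 0.83.

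Hexokinase traps glucose as glucose 6-phosphate. The gene for its widespread form, Hk1, lay at 7.41, 7.57, 7.43 and 7.31 on its brightest probe, a difference of -0.12 with 4OHT in OSKA cells. That probe is placed on chromosome 5 by the files, whereas the gene lies on chromosome 10. Both probes on chromosome 10 gave the opposite sign, 0.22 and 0.44, and in OSK cells -0.58 and -0.18 where the brightest gave 0.16. The direction for Hk1 therefore depends on the probe. Hk2, the inducible form, differed by 0.09 at most in any of the 4 comparisons. Gpi1, which isomerises glucose 6-phosphate, lay at 7.06, 7.03, 6.91 and 7.07, and its 3 probes, which share runs of 40 to 47 bases, differed by 0.16 to 0.20 with 4OHT in OSKA cells.

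The committed step showed isoform differences. Pfkl, the liver form of phosphofructokinase, lay at 1.14, 1.19, 1.11 and 1.65. The 3 arrays without activated AKT spanned 0.08, and the AKT-activated array lay 0.45 above the highest of them. The muscle form Pfkm, on a probe spotted 10 times with SDs of 0.013 to 0.036, differed by 0.45 with 4OHT in OSKA cells and by -0.10 in OSK cells. The platelet form Pfkp differed by 0.05 and 0.06, while its dimmer probe gave 0.21 and -0.71.

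The PFKFB enzymes make and break fructose 2,6-bisphosphate, the strongest activator of phosphofructokinase. Pfkfb3, the form in which the kinase activity prevails most, lay at 1.12, 1.36, 1.43 and 2.15. Its difference with 4OHT was 0.72 (1.64-fold) in OSKA cells and 0.24 (1.18-fold) in OSK cells, and OSKA cells lay above OSK cells by 0.31 without and 0.79 (1.72-fold) with the ligand. A second probe, whose 60 bases lie on 1414 bases of chromosome 2 and so cross an intron, gave 0.83 in OSKA cells. In OSK cells it was not well above background in the absence of the ligand, and with 4OHT it stood at least 1.97-fold higher. Its sequence is given because it reads another place of the transcript than the brightest probe.
Pfkfb3 probe, chr2:11404189-11405602, NCBI37, minus strand: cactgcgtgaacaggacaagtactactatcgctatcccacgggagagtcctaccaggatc
Pfkfb1 lay at -1.54, -1.41, -1.36 and -1.47. Over Pfkfb1, Pfkfb2 and Pfkfb4, the difference in OSKA cells ran from -0.10 to 0.28.

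**Figure D2:**
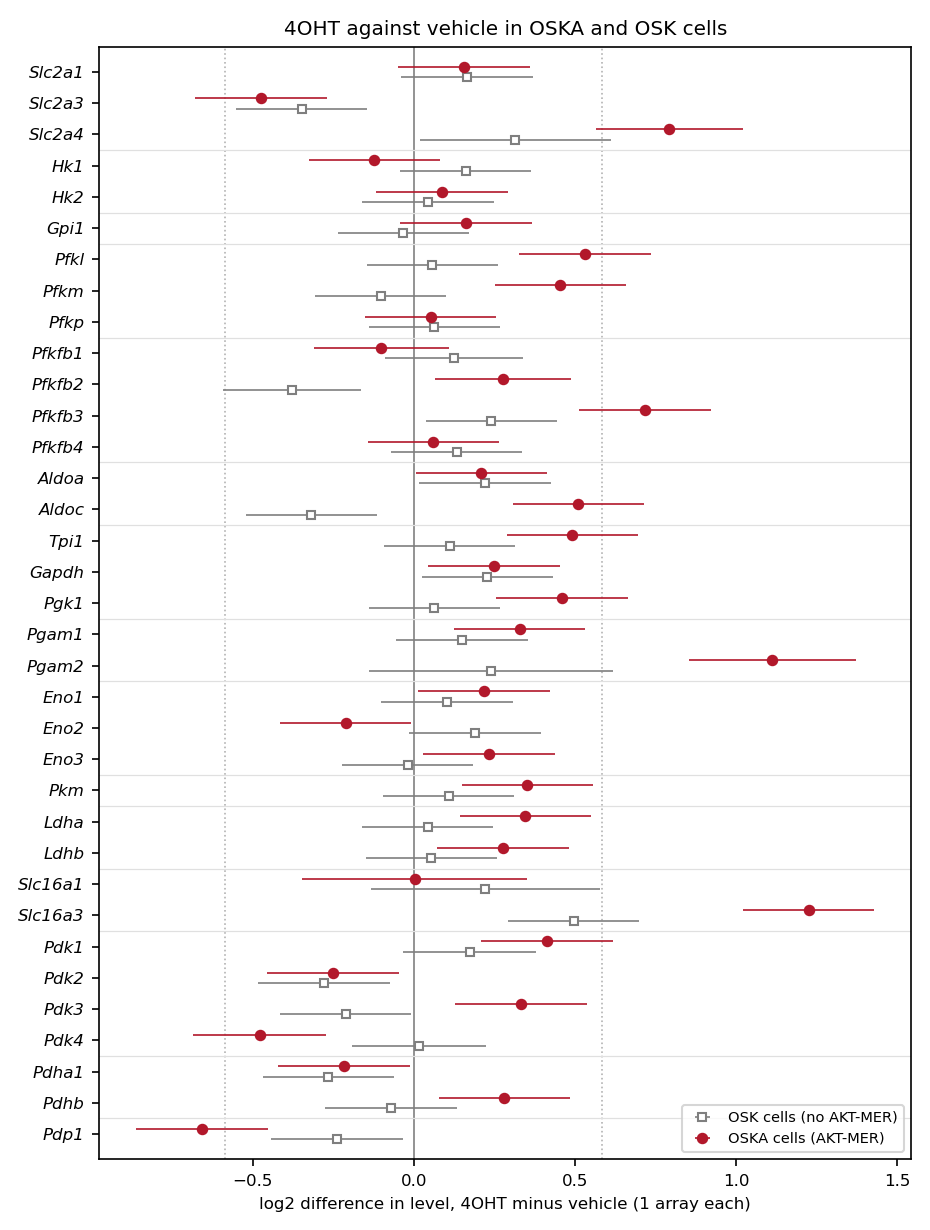
The log2 difference in level between 4OHT and vehicle for each gene, in OSKA cells (filled circles) and OSK cells (open squares), 1 array each. Bars are the scanner software's error of the difference and hold no variation between cultures, and dotted lines mark 1.5-fold. Slc16a3 and Pgam2 lie farthest to the right in OSKA cells at 1.23 and 1.11, and no OSK value passes 1.5-fold.

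In the later steps of glycolysis, the sugar is cleaved to triose phosphates that are then oxidised. Aldoa, the main aldolase outside liver and brain, lay at 7.42, 7.64, 7.64 and 7.85. Either 4OHT or AKT-MER went with a difference of 0.21 to 0.22, in every one of the 4 comparisons. Under scaling to the spike-in probes, however, it was -0.09 with 4OHT in OSK cells and -0.23 with AKT-MER in the absence of the ligand. Aldoc, the brain form, differed by 0.51 with 4OHT in OSKA cells and by -0.32 in OSK cells.

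Tpi1, which interconverts the triose phosphates, lay at 5.55, 5.67, 5.50 and 5.99. With 4OHT it was higher by 0.49 (1.41-fold) in OSKA cells and by 0.11 in OSK cells, whereas its second probe gave 0.46 and -0.17. Gapdh, often taken as a constant reference, was higher with 4OHT in OSKA cells on all 7 of its probes, by 0.25 to 0.39. In OSK cells the brightest probe, which the files place on chromosome X, gave 0.23, and the 6 others gave -0.16 to 0.18, 2 of them lower. Pgk1, the first enzyme of the route to yield ATP, differed by 0.46 on both of its probes in OSKA cells and by 0.06 in OSK cells, although the probes share a run of 53 bases and are hardly separate measurements. Its brighter probe, and 2 of Gapdh, are placed on other chromosomes than the gene, and both genes are known for many processed pseudogenes, whose part in the signal was not tested.

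Phosphoglycerate mutase has a widespread form, Pgam1, and a muscle form, Pgam2. Pgam1 lay at 5.84, 5.99, 5.93 and 6.26, and was higher with 4OHT by 0.33 in OSKA cells and 0.15 in OSK cells. Pgam2 lay at -4.32, -4.08, -3.80 and -2.69. It was 2.16-fold higher with 4OHT in OSKA cells (1.11 on the log2 scale, software error 0.26), 1.18-fold higher in OSK cells, and 2.62-fold higher in OSKA than OSK cells with 4OHT. The first of these levels was close to the lowest found well above background on that array, -4.67. Under normexp with quantile normalization the difference in OSKA cells was 0.48, and no longer 2-fold, while under quantile normalization alone it was 1.14. Of the 5 muscle markers looked up, Myog, Ckm and Mylpf were above background on no array. Des was so in OSKA cells without 4OHT alone, and at least 1.64-fold lower with 4OHT there. Acta1 differed by -1.17 with 4OHT in OSKA cells. The single Pgam2 probe crosses an intron, and is shown because the gene's whole value rests on it.
Pgam2 probe, chr11:5701822-5703040, NCBI37, minus strand: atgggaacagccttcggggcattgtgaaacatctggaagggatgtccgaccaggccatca

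Eno1, the widespread enolase, lay at 6.97, 7.08, 6.83 and 7.04. It was higher with 4OHT by 0.22 in OSKA cells and 0.10 in OSK cells, on a single probe that the files place on chromosome 2 while the gene is on chromosome 4. The muscle form Eno3 differed by 0.23 and -0.02, and the neuronal form Eno2 by -0.21 and 0.19. Pkm encodes both pyruvate kinases M1 and M2 by alternative splicing, which the only probe cannot tell apart. It lay at 6.25, 6.36, 6.22 and 6.57, higher with 4OHT by 0.35 (1.28-fold) in OSKA cells and 0.11 in OSK cells.

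Ldha encodes the subunit of lactate dehydrogenase that favours lactate. It lay at 7.78, 7.83, 7.78 and 8.12. The 3 arrays without activated AKT thus spanned 0.05, and the AKT-activated array lay 0.30 above them. The difference with 4OHT in OSKA cells was 0.35 on the brightest probe and 0.42 and 0.58 on the others, which lie at different places of the transcript and share no run of bases with it. In OSK cells it was 0.04 on the brightest probe and -0.17 and -0.06 on the others. Both are shown because the 3 readings of 1 gene are separate.
Ldha probe from base 351 of the transcript, chr7:54103010-54103069, NCBI37, plus strand: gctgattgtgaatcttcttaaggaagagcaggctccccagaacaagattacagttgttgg
Ldha probe from base 970 of the transcript, chr7:54107294-54107353, NCBI37, plus strand: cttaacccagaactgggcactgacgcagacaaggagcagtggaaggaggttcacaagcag
Ldhb, the subunit that favours pyruvate, was also higher with 4OHT, by 0.28 in OSKA cells and 0.05 in OSK cells.

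Of all members, Slc16a3 had the largest difference with 4OHT in OSKA cells. Its product MCT4 exports lactate from cells with high glycolysis. Slc16a3 lay at 2.72, 3.22, 3.02 and 4.25. The AKT-activated array was 1.03 above the highest of the others, which spanned 0.50. With 4OHT the gene was higher by 1.23 (2.34-fold) in OSKA cells and 0.50 (1.41-fold) in OSK cells, and with AKT-MER by 0.30 (1.23-fold) without and 1.03 (2.04-fold) with the ligand. The brighter probe lies at chr11:120820030-120820089 (NCBI37). The other gave 1.22, but shares 53 of its 60 bases and is hardly a second measurement. Slc16a1, the gene of the related carrier MCT1, lay at -4.10, -3.88, -4.13 and -4.13 on its only probe, near the background. Its difference in OSKA cells was 0.00 (software error 0.35).

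Macrophage markers were present on all arrays, and they and an endothelial marker moved in some of the comparisons. Cd68, Adgre1, Csf1r and Ptprc were each well above background on all 4 arrays. Their summed intensity, relative to the 75th percentile, was 1.49-fold, 1.46-fold and 1.32-fold that of OSK cells without 4OHT on the other 3 arrays in order. With 4OHT in OSK cells they were higher by 0.50 to 0.64, in 4 of 4 genes, and in OSKA cells they differed by -0.21 to 0.08. The Slc16a3 difference of 0.50 in OSK cells thus came with a like difference of these markers, whose part in it was not tested. In OSKA cells Slc16a3 differed by 1.23. Of the 3 endothelial markers, Kdr was higher with 4OHT by 0.73 in OSK cells and 0.23 in OSKA cells, Pecam1 differed by -0.01 and -0.003, and Cdh5 was above background on no array. Their summed intensity was 1.64-fold, 1.22-fold and 1.43-fold that of OSK cells without 4OHT in the same order, and their part was not tested either. Hk3, a hexokinase of myeloid cells named here after its values were seen, lay at 0.75, 1.21, 1.38 and 0.92.

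Epithelial markers moved as well. With 4OHT in OSKA cells, 4 of the 6 looked up were higher, with a median of 0.47. Cldn3 was higher by 2.87-fold, Krt18 by 1.81-fold, Krt8 by 1.47-fold and Cldn4 by 1.30-fold, while Epcam and Cdh1 differed by -0.45 and -0.14. In OSK cells 4 of the 5 measured were lower with 4OHT, with a median of -0.39. OSKA cells without 4OHT were lower than OSK cells without 4OHT for 4 of 5, with differences of -1.23 to 0.27, and Cdh1, Cldn3 and Krt8 were at least 2-fold lower. The summed intensity of the 6 was 0.79-fold, 0.563-fold and 0.925-fold that of OSK cells without 4OHT on the other 3 arrays in order. Their part in the differences of the members was not tested.

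**Figure D3:**
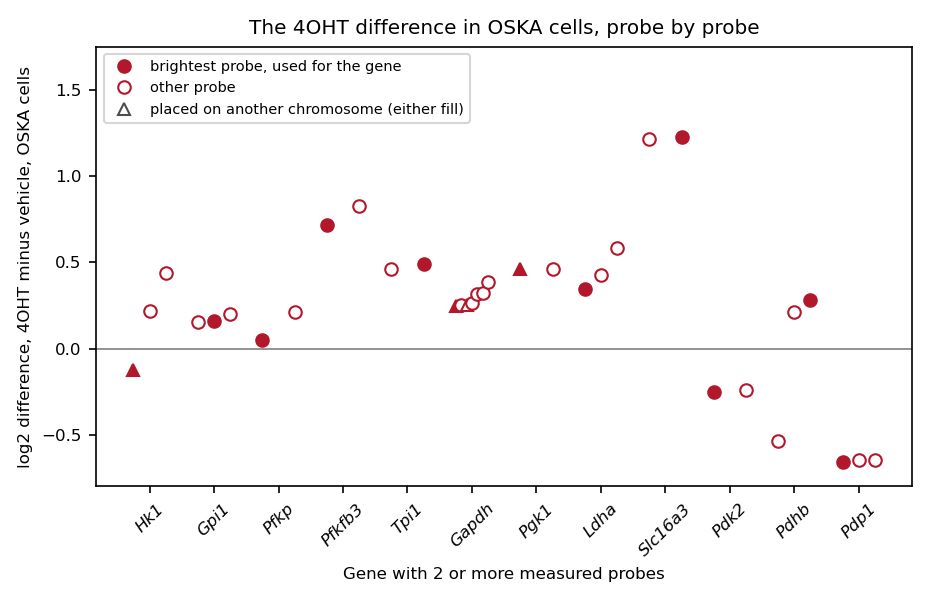
The log2 difference between 4OHT and vehicle in OSKA cells for every measured probe of the 12 genes with several. Filled symbols are the brightest probe, which stands for the gene, and triangles are probes placed on another chromosome than their gene. In 10 of the 12 genes all probes lie on one side of 0, and the exceptions are Hk1 and Pdhb.

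Pyruvate dehydrogenase is switched off by the PDK kinases and on by the PDP phosphatases. Pdp1 lay at 1.57, 1.33, 1.64 and 0.99. The difference with 4OHT was -0.66 (1.58-fold lower) in OSKA cells and -0.24 (1.18-fold lower) in OSK cells, and its 3 probes gave -0.64 to -0.66 in OSKA cells. The kinases did not move together. Pdk1 lay at -0.12, 0.05, -0.21 and 0.21, higher with 4OHT by 0.41 in OSKA cells, and Pdk3 was higher by 0.33. The difference was -0.25 for Pdk2 and -0.48 for Pdk4, the starvation-induced kinase.

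The catalytic subunit gene Pdha1 lay at 3.04, 2.78, 2.63 and 2.42. It was lower with 4OHT in OSKA cells (-0.22) and OSK cells (-0.27), and lower in OSKA than OSK cells (-0.41 without and -0.36 with 4OHT). Pdhb, the gene of its partner subunit, was higher by 0.28 with 4OHT in OSKA cells. As the plot of single probes shows, Hk1 and Pdhb were the genes among the 12 with several measured probes whose probes differed in sign. For Pdhb the odd one out was a dim probe designed from another transcript record, at -0.54.

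In OSK cells, 4OHT has no AKT-MER to act on, and the comparison shows what else went with the ligand. It was accompanied by smaller differences. Of the 35 genes, 24 were higher with 4OHT (49.4% of all genes), with a median of 0.06, and on the brightest probes none differed by 1.5-fold in either direction (4.33% of all genes were higher and 1.63% lower by that much, and 0.609% and 0.277% by 2-fold). The nearest was Slc16a3 at 0.50. Scaled to the spike-in probes, the median was -0.24 and 2 of the 35 were higher, while the share of all genes that were higher went from 49.4% to 13.2%. With dim probes kept, 59.6% of all genes were higher, their median was 0.08, and 17 members lay above it. The count also depended on the probe, since 30 of the 56 member probes measured were higher. Of 11 genes with several measured probes, 5 (Hk1, Pfkp, Tpi1, Gapdh and Ldha) held probes of both signs. In each of these 5 the brightest probe, which stands for the gene, gave the highest value, and the cause was not tested. Dimmer probes of Pfkp (-0.71) and Pdhb (-0.89) were at least 1.5-fold lower, and the second one of Pfkfb3 was at least 1.97-fold higher.

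The difference with 4OHT was larger in OSKA than in OSK cells for 24 of 35 genes (45.7% of all genes). The median of the difference between the effects was 0.19, against -0.04 for all genes. It was 0.51 under spike-in scaling, which shifts all genes by the same amount. On the brightest probes the difference between the effects was largest for Pgam2 (0.87), Aldoc (0.83), Slc16a3 (0.73), Pfkfb2 (0.65) and Pfkm (0.56). Then came Pdk3 (0.54), Slc2a4 and Pfkfb3 (both 0.48) and Pfkl (0.47). It reached 1.5-fold for 4 members (7.03% of all genes). The second Pfkfb3 probe gave the opposite sign, since it was 1.78-fold higher with 4OHT in OSKA cells and at least 1.97-fold higher in OSK cells. On other probes the difference between the effects was 0.92 for Pfkp and 0.62 and 0.79 for Hk1, whose brightest probe gave -0.28. It was 0.63 for Tpi1, 0.59 and 0.64 for Ldha, and -0.46 and -0.39 for Pdp1. For Slc2a1 and Aldoa it was -0.01. For Gapdh it was 0.02 on the brightest probe and 0.19 to 0.43 on the 6 others. The lowest were Pdk4 at -0.49 and Pdp1 at -0.42. Both effects were positive for 20 genes (21.7% of all genes), and they had opposite signs for 11 (50.4% of all genes), 7 of them positive in OSKA cells (22.7% of all genes).

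Between OSKA and OSK cells without the ligand, the members lay close to the rest of the genes. OSKA cells without 4OHT were higher than OSK cells without 4OHT for 16 of the 35 genes (47.0% of all genes), with a median of -0.02, and 18 members lay above the median of all genes. With dim probes kept they lay less close, since 39.9% of all genes were higher, their median was -0.09, and 24 members lay above it. Slc2a4 was the only member at least 1.5-fold higher (5.66% of all genes) and Slc2a3, at -0.61, the only one at least 1.5-fold lower (3.99% of all genes). No member reached 2-fold (1.09% of all genes higher, 0.931% lower). Under spike-in scaling the median was -0.47, 2 genes were higher, 2 were at least 2-fold different, Slc2a3 (-1.07) among them, and the share of all genes that were higher went from 47.0% to 9.16%. The sign then turned for all but 2 of the 16, among them Slc16a3 (-0.16 in place of 0.30), Pfkfb3 (-0.15 in place of 0.31) and Aldoa (-0.23 in place of 0.22). The macrophage markers were higher by 0.40 to 0.61 in this comparison, and their part in it was not tested.

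With 4OHT on both sides, OSKA cells were higher than OSK cells for 23 of the 35 genes (42.9% of all genes), with a median of 0.15. The median was 0.02 with 18 genes higher under spike-in scaling (26.0% of all genes), and 0.26 under quantile normalization. Slc16a3, Pgam2 and Slc2a4 were at least 2-fold higher (1.92% of all genes), and none was as much lower (1.12% of all genes). Pfkfb3 was at least 1.5-fold higher (5.46% of all genes) and Slc2a3 at least 1.5-fold lower (5.10% of all genes). This comparison and that of 4OHT in OSKA cells share the AKT-activated array, so they are not separate evidence. Under spike-in scaling 1 of the 3, Pgam2 (1.25), was still at 2-fold. Under normexp with quantile normalization 1 was, Slc16a3 (1.02), while Pgam2 and Slc2a4 were at 0.58 and 0.59, against 1.39 and 1.13 under quantile normalization alone. Quantile normalization gave larger differences for the bright genes Aldoa (0.48 in place of 0.21), Ldha (0.57 in place of 0.30) and Gpi1 (0.26 in place of 0.05). Cell type markers moved both ways between OSKA and OSK cells with 4OHT. The epithelial ones ran from -0.60 to 1.06, 3 of 6 higher, and the fibroblast ones from -0.76 to 0.86, 6 of 10 higher. Their part was not tested.

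**Figure D4:**
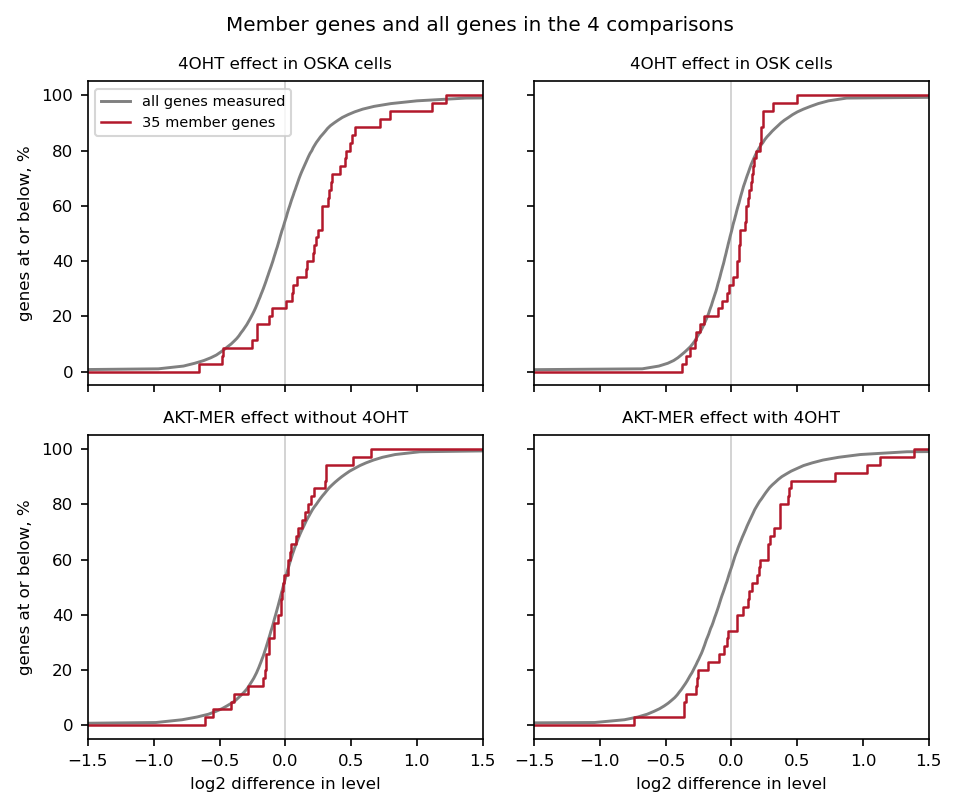
Cumulative share of genes (%) at or below each log2 difference in the 4 comparisons, for the 35 members (red steps) and for all genes measured (grey). The axis is limited to differences between -1.5 and 1.5. The red line lies to the right of the grey one in the 2 comparisons that hold the AKT-activated array, with medians of 0.25 and 0.15 against -0.03 and -0.05. It also lies to the right, by less, over much of the range for 4OHT in OSK cells, and close to the grey line for AKT-MER without 4OHT.

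As the cumulative plots show, the shift of the members against all genes was spread over most of the list in the comparisons that hold the AKT-activated array. The lower quartile of the members with 4OHT in OSKA cells was 0.03 and the upper quartile 0.43, against -0.21 and 0.15 for all genes. With 4OHT in OSK cells the quartiles were -0.05 and 0.17, against -0.15 and 0.15.

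In the wider pathway, as many genes were higher as lower with 4OHT in OSKA cells. Of 47 further genes (other sugar carriers, isoenzymes, proton-linked carriers with their chaperones, the rest of the pyruvate dehydrogenase complex, opposing steps and regulators), 34 were measured with 4OHT in OSKA cells, 17 higher and 17 lower, with a median of 0.01, close to the 45.2% higher and the median of -0.03 of all genes. The other comparisons were less even. With 4OHT in OSK cells 10 of 32 were higher (49.4% of all genes). OSKA cells were higher than OSK cells for 12 of 33 without 4OHT (47.0% of all genes) and 20 of 32 with it (42.9% of all genes). Isoenzymes of other tissues were often not detected, 7 of 12 being above background on no array. None of the 34 was at least 1.5-fold higher (5.06% of all genes), and Myc alone was at least 1.5-fold lower (4.63% of all genes). Myc, a transcription factor that drives many glycolytic genes, lay at 1.70, 1.47, 1.07 and 0.40, a difference with 4OHT of -0.67 in OSKA cells and -0.23 in OSK cells. Of the 7 regulators, 5 were lower with the ligand in OSKA cells (54.8% of all genes), and all 7 in OSK cells (50.6% of all genes). Hif1a, the oxygen-regulated factor that acts on many of the same genes, is named outside the rule and lay at 1.76, 1.14, 1.65 and 1.86.

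Promoters are shown for the genes that were at least 1.5-fold higher with 4OHT in OSKA cells and have an entry, Slc16a3, Pfkfb3 and Pgam2, and for Ldha, of which 1 of 2 windows is printed, added for the number of motifs it holds. RefSeq windows on GRCm38.p6 were given for 32 of the 35 genes (51 windows), and the 250 bases before each start were searched on both strands. The motifs were ACGTG and GCGTG, cores of the hypoxia response element, the E-box CACGTG, which holds ACGTG on either strand, and the forkhead motif TGTTTAC. Capitals mark ACGTG and GCGTG, read on either strand.
Slc16a3, chr11:120948817-120949066, plus strand: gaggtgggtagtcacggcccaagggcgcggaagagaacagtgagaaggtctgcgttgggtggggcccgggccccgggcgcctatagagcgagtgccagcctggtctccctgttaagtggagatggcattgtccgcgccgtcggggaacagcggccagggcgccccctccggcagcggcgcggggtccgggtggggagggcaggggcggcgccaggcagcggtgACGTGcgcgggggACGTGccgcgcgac
Pfkfb3, chr2:11502091-11502340, minus strand: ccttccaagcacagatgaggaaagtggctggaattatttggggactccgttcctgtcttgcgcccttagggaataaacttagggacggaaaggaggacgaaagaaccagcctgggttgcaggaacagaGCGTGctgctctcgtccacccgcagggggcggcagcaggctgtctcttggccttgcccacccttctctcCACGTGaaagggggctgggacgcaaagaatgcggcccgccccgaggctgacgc
Pfkfb3, chr2:11553930-11554179, minus strand: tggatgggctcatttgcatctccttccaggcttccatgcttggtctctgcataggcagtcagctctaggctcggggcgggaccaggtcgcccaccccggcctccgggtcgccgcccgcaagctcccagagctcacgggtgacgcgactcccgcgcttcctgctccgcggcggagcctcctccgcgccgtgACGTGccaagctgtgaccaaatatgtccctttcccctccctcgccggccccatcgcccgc
Pgam2, chr11:5803797-5804046, minus strand: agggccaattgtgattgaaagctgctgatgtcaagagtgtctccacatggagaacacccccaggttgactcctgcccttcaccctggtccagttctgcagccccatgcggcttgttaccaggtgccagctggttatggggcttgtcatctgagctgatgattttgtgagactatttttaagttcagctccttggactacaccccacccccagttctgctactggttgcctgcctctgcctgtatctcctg
Ldha, chr7:46845554-46845803, plus strand: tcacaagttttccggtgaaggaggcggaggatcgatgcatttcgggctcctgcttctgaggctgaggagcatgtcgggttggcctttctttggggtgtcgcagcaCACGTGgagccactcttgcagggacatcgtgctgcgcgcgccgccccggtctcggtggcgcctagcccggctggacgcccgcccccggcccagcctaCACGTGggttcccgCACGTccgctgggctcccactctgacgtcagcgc

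Slc16a3 held ACGTG at 2 places close to its start. One window of Pfkfb3 held an E-box and GCGTG, and the other ACGTG. The printed window of Ldha held 2 E-boxes and a further ACGTG on the minus strand. Its other window, chr7:46846832-46847081, held GCGTG once and no match to the other motifs, and the window of Pgam2 had no match to the 4 motifs. ACGTG was found in 19 of the 51 member windows (16.6% of all 32851 windows), GCGTG in 27 (28.2%), the E-box in 6 (6.02%) and the forkhead motif in 1 (3.17%). Either hypoxia core was found in 38 windows of 28 genes (38.6% of all windows). Several windows of a gene overlap, and the share of G and C varied between them (53.2% for Pgam2, 73.6% for Slc16a3). These shares describe letters and not sites.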

How the data were processed

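Expression was measured on 4 single-colour (Cy3) Agilent arrays of 1 slide, 100 ng of RNA each. The deposited scanner files hold an intensity per spot on a linear scale, corrected for background by Feature Extraction 10.7.3.1, per the file headers, with no normalization between arrays. The intensity of the deposited series matrix is the same, rounded. Here each intensity was divided by the array's 75th percentile over kept spots that were not controls (104 to 155 marked spots per array were left out), then log2 was taken, repeated spots were averaged, and a gene was given by its brightest probe. Differences needed a probe well above background on both arrays. Otherwise a bound against the dimmer array is given. Groups came from the sample titles. The steps were tested on simulated data with changes larger than any member difference, so the test does not cover differences of the size described here. Values on every array were printed for members at least 1.5-fold different in any comparison and for 1 gene of each step, and further pathway genes were named from 1.5-fold in OSKA cells. Members, lists, rules and motifs were chosen with earlier results of these data known. Probe positions are those of the files (NCBI37), and promoters come from RefSeq (GRCm38.p6). Python 3.11.15, pandas 2.3.3, R 4.3.3 and limma 3.58.1 were used. The precision is limited by the number of arrays. Alternatives covered scaling, background correction, the filter on dim probes and the choice of probe.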

Additional observations from a re-analysis of the deposited data

Results flagged for a closer look

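For 3 genes the difference between 4OHT and vehicle ran one way in OSKA cells and the other way in OSK cells, each time by more than the error given by the scanner software. Aldoc, the brain form of aldolase, gave 0.51 in OSKA cells and -0.32 in OSK cells. Pfkfb2, the heart form of the PFKFB enzymes, gave 0.28 and -0.38, and Pdk3, a kinase that switches off pyruvate dehydrogenase, gave 0.33 and -0.21. With 1 array per group the difference between the effects was not tested. Opposite signs of any size were found for 50.4% of all genes and for 11 of the 35 members. The share of all genes with opposite signs beyond the software error was not counted. Under spike-in scaling all OSK values shift down by the same amount.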

How the results depend on the processing

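The 27 of 35 genes that were higher with 4OHT in OSKA cells numbered 27 under each of the alternatives run, which were chosen for this count after the data were seen, but they were not always the same genes. Hk1 was higher with the mean of all probes (0.18) and with probes on their own chromosome (0.44), and in the latter the 27 were of 34 genes. Medians of the members moved by more than the software error, and counts by over 1.5 times, in these cases. Scaling to the spike-in probes, which shifts the median of all genes to -0.31 with 4OHT in OSK cells, to -0.47 for AKT-MER without 4OHT and to -0.19 for AKT-MER with 4OHT, gave member medians of -0.24 and -0.47 in the first 2 of these, a median of 0.51 for the 4OHT effect in OSKA minus that in OSK cells, 2 genes higher in place of 24 and of 16, 2 genes at least 2-fold different without 4OHT in place of 0 and 1 with 4OHT in place of 3. Normexp with quantile normalization left 1 gene at 2-fold for 4OHT in OSKA cells and 1 for AKT-MER with 4OHT. Within the software error, the median for AKT-MER with 4OHT went from 0.15 to 0.02 under spike-in scaling, 0.26 under quantile normalization and 0.23 under normexp with quantile normalization, that for 4OHT in OSK cells from 0.06 to 0.04 under centring on the array median and under normexp with quantile normalization, and that for AKT-MER without 4OHT, -0.02, lay between -0.06 and -0.01 under alternatives other than spike-in scaling. At a threshold of 1.5-fold the counts were 5 for 4OHT in OSKA cells, 5 for AKT-MER with 4OHT and 2 for AKT-MER without 4OHT. Of 716 values of the 20 genes with printed levels, 657 stayed within the software error and 59 did not. Under probes placed on their gene's own chromosome, also chosen after the data were seen, Eno1 had no probe left. The cause of these moves was not tested, except that scaling shifts every gene of an array alike. No paired analysis was possible because each group has 1 array, and none could be left out. Dim probes (Pgam2, Slc2a4, Slc16a1) are the least precise.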
